A study of Mus musculus with 10 samples.

Results

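The genes described here are the Nlrp genes other than Nlrp5 that the oocyte is known to transcribe: Nlrp2, Nlrp4a, Nlrp4b, Nlrp4c, Nlrp4e, Nlrp4f, Nlrp9a, Nlrp9b, Nlrp9c and Nlrp14. They were chosen by gene name and not by their level, and all 10 had a row among the 21437 genes of the expression table. Of these, 9 were above 0 in MII oocytes. Nlrp4c was listed at 0 in both oocyte libraries, so these values do not show it as an oocyte gene. Whether its mRNA was absent was not tested.

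Nlrp genes encode cytoplasmic proteins with a pyrin domain, a nucleotide-binding NACHT domain and leucine-rich repeats. Relatives such as NLRP3 sense infection or damage and assemble inflammasomes in immune cells, whereas a branch of the family that expanded by gene duplication in rodents is transcribed in the growing oocyte and stored as maternal mRNA. Several of its members are maternal-effect genes, which means that an embryo depends on the product made by its mother. NLRP5 and proteins around it form the subcortical maternal complex beneath the oocyte membrane.

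RNA-seq was done on 10 libraries in 5 groups of 2, which were MII oocytes, control middle 2-cell embryos, 2-cell embryos after Ago2 knockdown (Ago2 kd), control early 4-cell embryos and 4-cell Ago2 kd embryos. Ago2 encodes the Argonaute protein that cleaves RNA bound to its small guide RNA, and the study asked whether maternal mRNAs persist without it. All females were 7 weeks old and were superovulated with 6.5 IU of PMSG followed 47 h later by 5 IU of hCG. Oocytes were taken 16 h, 2-cell embryos 40 h and 4-cell embryos 55 h after hCG. The genotype label was wild type for oocytes and control embryos and Ago2-kd for the injected embryos. Knockdown was done by injecting zygotes with 10 µM Ago2 siRNA together with AGO2 antibody at 0.5 mg/ml, so effects of siRNA and antibody cannot be told apart. A scrambled siRNA is named as negative control in the methods, but the labels do not say what the control embryos received. The labels name strain ICR throughout, while the methods give ICR for oocytes and F1 crosses for embryos, so strain and stage cannot be told apart between oocytes and embryos. Ago2 mRNA was not analysed here.

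The values are FPKM, fragments scaled to exon length and to the mapped fragments of the library, which are corrected for gene length and so allow levels of different genes to be compared. The read depth behind them is unknown. Summed over all genes they came to between 450124 and 458874 FPKM in oocytes and between 178681 and 326352 FPKM in embryos. Gapdh was at most 0.167 FPKM in each library, and among genes above 10 FPKM in the other replicate between 1.46% and 4.94% were listed at 0 in 9 libraries and 12.6% in 4-cell Ago2 kd replicate 1. A 0 in a single library was therefore not read as absence. For most of the genes described here, another version of the oocyte values released with the study divides the same sum differently between the replicates, while the control embryo values are the same, and which division was measured is not known. Oocyte means do not depend on this, but the value in each oocyte library, its rank, overlap with other groups and the p-values do. The 8 oocyte markers, among them Gdf9, Zp3 and Mos, summed to between 8179 and 10090 FPKM in the MII libraries, although Zp1 was at 0 and 0.569 FPKM. Of 10 cumulus and granulosa cell markers only 1, Foxl2, had a row. It was listed at 0, so these values can say little of such cells. Markers of zygotic gene activation, with 5 of 9 in the table, summed to 89.6 to 115 FPKM in oocytes, mostly Tcstv1 (71.6 and 81.5 FPKM). At the 2-cell stage their sum was 582 to 668 FPKM in control libraries but 321 to 460 FPKM after Ago2 kd. Tcstv3 went from 273 and 306 FPKM in control to the same 134 FPKM in both Ago2 kd libraries. Tcstv1 was higher, at 90.9 and 69.5 FPKM after 56.6 and 62.1 FPKM in control. Of the 4 markers that entered the tests below none was called between Ago2 kd and control at the 2-cell stage, beside 0.55% of all genes tested. At the 4-cell stage 1 of 4, Tcstv3, was called higher, beside 4% of all genes called in either direction. It was at 0.541 and 0.812 FPKM in control and 13.7 and 13.5 FPKM after Ago2 kd. The difference between its knockdown effects at the 2 stages was called too, beside 2.28% of all genes. The part of these markers in the knockdown results was not tested.

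The genes stand close together in the genome and resemble each other, which bears on every value below because short reads from a stretch shared by several genes cannot be placed with certainty. Chromosome 7 carries 9 of the 10 genes and Nlrp4f is on chromosome 13 (GRCm38, GENCODE M21). Nlrp9c at chr7:26322473-26403700, Nlrp4a at chr7:26435113-26476142 and Nlrp9a at chr7:26535023-26575615 follow each other with no other protein-coding gene between them, with Nlrp9c on the minus strand and the others on the plus strand. Nlrp9b lies apart at chr7:19991465-20073306, and Nlrp4e at chr7:23301192-23362277. Nlrp2 (chr7:5298547-5351035, minus strand), Nlrp4c (chr7:6045161-6105150) and Nlrp4b (chr7:10687789-10730168) lie nearer to the chromosome start, and Nlrp14 lies at chr7:107166990-107198102. The coding sequences are of like length, from 2592 bases in Nlrp4b to 3141 bases in Nlrp2.

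To show how far the resemblance goes, the longest coding stretch shared by any pair of members is printed below for the 3 Nlrp9 genes. It lies in exon 3 of Nlrp9a (chr7:26557547-26557675, plus strand) and in exon 3 of Nlrp9b (chr7:20023428-20023556, plus strand), and the matching stretch of Nlrp9c is in exon 2 (chr7:26385436-26385564, minus strand). Capitals mark the 12 bases at which Nlrp9c differs from the others.
Nlrp9a: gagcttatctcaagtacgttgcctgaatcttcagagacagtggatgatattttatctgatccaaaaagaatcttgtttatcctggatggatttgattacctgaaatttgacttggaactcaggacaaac
Nlrp9b: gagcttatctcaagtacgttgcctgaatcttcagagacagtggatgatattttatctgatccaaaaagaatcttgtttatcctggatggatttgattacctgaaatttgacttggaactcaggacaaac
Nlrp9c: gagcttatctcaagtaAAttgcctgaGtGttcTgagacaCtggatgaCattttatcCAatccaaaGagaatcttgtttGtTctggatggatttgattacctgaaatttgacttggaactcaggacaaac

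The corresponding stretch of the Nlrp4 genes is the longest run shared by Nlrp4c and Nlrp4e, and it is shown because the values of Nlrp4e differed between replicates and Nlrp4c was at 0 in 9 libraries. It covers 120 bases in exon 2 of Nlrp4c (chr7:6060715-6060834), exon 1 of Nlrp4e (chr7:23301402-23301521), exon 3 of Nlrp4a (chr7:26444332-26444451) and exon 3 of Nlrp4b (chr7:10710246-10710365), all on the plus strand. Capitals mark the 13 bases of Nlrp4a and the 21 bases of Nlrp4b that differ from Nlrp4c.
Nlrp4c: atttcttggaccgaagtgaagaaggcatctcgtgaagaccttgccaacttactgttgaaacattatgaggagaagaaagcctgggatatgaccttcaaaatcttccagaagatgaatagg
Nlrp4e: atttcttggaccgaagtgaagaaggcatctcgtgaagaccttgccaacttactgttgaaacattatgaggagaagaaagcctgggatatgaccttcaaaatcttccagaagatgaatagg
Nlrp4a: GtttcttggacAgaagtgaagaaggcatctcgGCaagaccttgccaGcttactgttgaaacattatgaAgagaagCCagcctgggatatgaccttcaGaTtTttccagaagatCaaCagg
Nlrp4b: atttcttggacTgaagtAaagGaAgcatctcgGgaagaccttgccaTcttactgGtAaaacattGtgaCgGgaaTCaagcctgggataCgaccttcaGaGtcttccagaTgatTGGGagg

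Over whole coding sequences Nlrp4c and Nlrp4e were 93.9% identical, Nlrp9a and Nlrp9c 87.7%, and Nlrp4a and Nlrp4c 86.3%. Nlrp2 and Nlrp14 were no more than 65.9% identical to any other member, as the map of coding identity shows. The share of a gene's 50-base stretches that also occur in transcripts of another gene was 36.7% for Nlrp4e and 10.7% for Nlrp4c. It was between 2.61% and 7.79% for the 3 Nlrp9 genes, and it was 0 for Nlrp4b and Nlrp14. Most of what Nlrp4e shared was with unprocessed pseudogenes on chromosome 7, among them Gm16443 with 1033 stretches and Gm8486 with 1016. Gm16443 and Gm8486 have no row in the expression table, so their own levels are unknown. With 100-base stretches the share was 11.5% for Nlrp4e and at most 2.11% for every other member. Nlrp14 and Nlrp4b are thus the members whose values sequence sharing could touch least, and Nlrp4e is the member it could touch most.

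**Figure D1:**
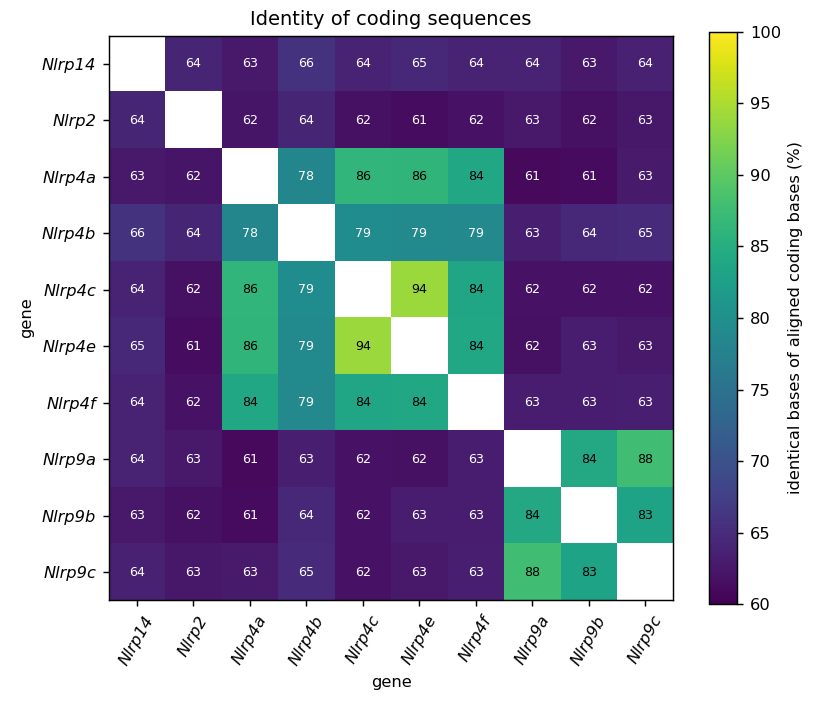
Percentage of identical bases among aligned bases of the coding sequence for each pair of the 10 genes, on a colour scale from 60 to 100%. The Nlrp4 genes and the Nlrp9 genes form separate blocks of high identity, with Nlrp4c and Nlrp4e the most alike at 93.9%.

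The upstream sequences of Nlrp9a and Nlrp9c resemble each other too. Promoter windows from 250 bases before to 50 bases after the transcription start were taken from RefSeq (GRCm38.p6), which held one or more for 9 of the 10 genes, Nlrp14 being the exception. The windows of Nlrp9a (chr7:26534773-26535072, plus strand) and Nlrp9c (chr7:26403651-26403950, minus strand) share an unbroken run of 106 bases. They are printed for that reason, with the letters CAGGTG in capitals.
Nlrp9a promoter: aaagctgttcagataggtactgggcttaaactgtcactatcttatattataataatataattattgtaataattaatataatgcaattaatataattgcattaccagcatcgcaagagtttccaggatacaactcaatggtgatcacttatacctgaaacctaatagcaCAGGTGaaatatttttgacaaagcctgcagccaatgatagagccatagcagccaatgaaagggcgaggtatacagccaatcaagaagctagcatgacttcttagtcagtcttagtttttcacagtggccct
Nlrp9c promoter: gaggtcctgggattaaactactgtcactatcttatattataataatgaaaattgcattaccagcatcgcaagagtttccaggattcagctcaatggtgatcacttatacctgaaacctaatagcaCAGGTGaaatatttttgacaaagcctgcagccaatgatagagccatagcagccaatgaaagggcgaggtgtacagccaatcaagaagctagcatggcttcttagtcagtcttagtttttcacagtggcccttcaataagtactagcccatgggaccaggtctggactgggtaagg

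CAGGTG is a version of the E-box CANNTG, the motif that helix-loop-helix factors of the oocyte such as FIGLA can bind. On either strand CAGGTG was present in 20.2% of all 32851 promoter windows and in those of Nlrp9a, Nlrp9b and Nlrp9c, and CANNTG was present in 72.3% of all windows and in 8 of the 9 genes with a window. The letters TATAAA occurred in 13.6% of all windows and among the members in that of Nlrp9b. The 3′ UTRs of the members had a median of 278 bases, against 886 bases over the 3904 matched protein-coding genes whose oocyte mean exceeded 2 FPKM. That median lies between 2 groups. The Nlrp4 genes ranged from 355 bases in Nlrp4e to 1003 in Nlrp4a, and the other members from 184 in Nlrp14 to 201 in Nlrp9b. Below 300 bases were 5 of the 10, against 21.7% of those genes and 34.2% of all protein-coding genes of the annotation. These matches are a description of the letters and were not tested.

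In MII oocytes Nlrp14 was the most abundant of these mRNAs. NLRP14 is needed by early embryos, which arrest when the mother lacks it, and it has been reported to act with the epigenetic regulator UHRF1. Its level was 1448 and 1239 FPKM in the 2 oocyte libraries, rank 37 and 45 among all genes. It made up 41.9% and 41.4% of the summed level of the 10 genes. Uhrf1 and Slc8b1, encoding reported partners of NLRP14, together stayed between 0.0497 and 0.208 FPKM in all 10 libraries. Gapdh was likewise near 0 in each library, so such low values were not read as absence.

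Nlrp4f followed at 598 and 469 FPKM and Nlrp9c at 300.4 and 512 FPKM, and their libraries overlapped. Nlrp4f is an oocyte-specific member that has been linked to the subcortical maternal complex, and the Nlrp9 genes encode proteins of which NLRP9B is also known as a sensor of viral RNA in the gut. Nlrp9a was at 323 and 268 FPKM and Nlrp9b at 206 and 160 FPKM, so that Nlrp9a lay above Nlrp9b in both libraries. Nlrp4b was at 294 and 149 FPKM and Nlrp4a at 96.4 and 181 FPKM. The order of these last 2 genes differed between the libraries, and neither was separated from Nlrp9b.

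Nlrp2 was the lowest of the members above 0 in both oocyte libraries, at 47.9 and 16.2 FPKM. NLRP2 is a maternal-effect protein tied to the upkeep of imprints in the early embryo. Nlrp4e was at 142 FPKM in one library and listed at 0 in the other, and Nlrp4c was listed at 0 in both. Nlrp4c was above 0 in a single library of the 10, at 5.67 FPKM in 4-cell Ago2 kd replicate 2, and it did not enter the tests, which need 1 FPKM in 2 libraries. The sequence shared by Nlrp4c and Nlrp4e stands above, and its part in these values was not tested.

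The sum over the 10 genes is less open to exchange of reads between paralogs. In MII oocytes it was 3457 and 2995 FPKM. Control embryos at the 2-cell stage had sums of 1651 and 1053 FPKM, and after Ago2 kd the sums were 1552 and 1922 FPKM. Control embryos at the 4-cell stage had sums of 22.8 and 2.32 FPKM, and the corresponding Ago2 kd libraries 0 and 30.4 FPKM. The 4-cell libraries thus lay far below all others, while the 2-cell control and Ago2 kd libraries overlapped.

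**Figure D2:**
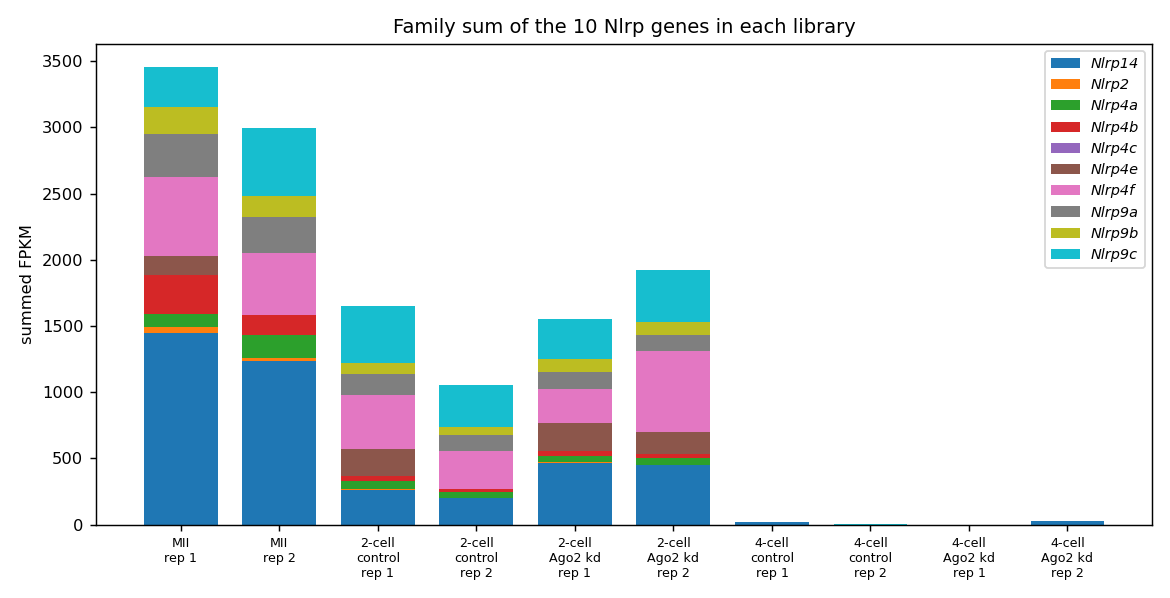
Summed FPKM of the 10 genes in each library, with 1 colour per gene. The bars stand at 3457 and 2995 FPKM in oocytes, between 1053 and 1922 FPKM at the 2-cell stage and at most 30.4 FPKM at the 4-cell stage.

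Between MII oocytes and 2-cell control embryos the mRNAs fell unequally. Nlrp4b and Nlrp9b passed the test, Nlrp4f and Nlrp9c kept most of their level, and the sum fell to 41.9% of the oocyte value as a ratio of group means. The test was limma on log2(FPKM + 1) with Benjamini-Hochberg adjustment over the 8726 genes tested, and an adjusted p below 0.05 was called. These p-values rest on the division of the oocyte values between replicates that was deposited. Called lower were 2 of the 9 members tested, beside 14.2% of all genes tested and 25.5% of those with a mean above 2 FPKM in oocytes. At an unadjusted p below 0.05, 5 of 9 were lower, beside 21.6% of all genes.

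Nlrp4b went from 294 and 149 FPKM to 35.5 and 21.5 FPKM. Both embryo libraries were below both oocyte libraries, and the difference on the log2 scale was -2.88 (95% interval -4.04 to -1.71, adjusted p = 0.00719). The call of Nlrp4b was lost with 0.1 in place of 1 FPKM added before the logarithm (0.0998), with quantile normalization (0.0518) and with only these 4 libraries fitted (0.0505). Nlrp9b went from 206 and 160 FPKM to 80.4 and 60.3 FPKM, again without overlap, with a difference of -1.37 (-2.14 to -0.60, adjusted p = 0.0256). Its call was lost in 7 of 17 other fits, which were those without oocyte replicate 1 (0.107), oocyte replicate 2 (0.0525) or 2-cell control replicate 2 (0.116), with equal medians (0.394), quantile normalization (0.810), 0.1 FPKM added (0.0574) and only these libraries (0.0510).

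Nlrp9a went from 323 and 268 FPKM to 163 and 120 FPKM (difference -1.07, interval -1.80 to -0.33, adjusted p = 0.0529). Nlrp4a went from 96.4 and 181 FPKM to 58.7 and 47.4 FPKM (difference -1.31, -2.25 to -0.37, adjusted p = 0.0597). The groups of both genes did not overlap, but neither gene was called. In 2 of 17 other fits Nlrp4a was called, and in 5 of 17 Nlrp9a was. The fit without the variance trend called both (0.0427 for Nlrp4a, 0.0364 for Nlrp9a). Without oocyte replicate 1 Nlrp4a was called (0.0389), and Nlrp9a was called without any one of the 4-cell libraries (0.0457 to 0.0481).

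Nlrp14 showed the largest difference in FPKM, from 1448 and 1239 to 263 and 200.2 FPKM, which left 17.2% of its oocyte level. Its difference of -2.54 on the log2 scale was not called (interval -6.73 to 1.65, adjusted p = 0.394). The spread that the fit gives to Nlrp14 is shared by all groups and came from the 4-cell libraries, in which 1 replicate of each group was listed at 0. In a fit of the oocyte and 2-cell control libraries alone, the same difference had an adjusted p of 0.0193.

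Nlrp4f and Nlrp9c were the members with the most mRNA left at the 2-cell stage. Nlrp9c was at 431 and 313 FPKM, within the range of its oocyte libraries (difference -0.09, interval -1.17 to 0.98, adjusted p = 0.991). Nlrp4f was at 403 and 290.0 FPKM, below both oocyte libraries by a small margin (difference -0.63, interval -1.70 to 0.43, adjusted p = 0.406). At this stage these genes and not Nlrp14 led the family, with Nlrp9c making up 26.1% and 29.7% of the sum and Nlrp14 15.9% and 19.0%. By rank among all genes, Nlrp9c stood at 63 and 92 in 2-cell control embryos after 269 and 141 in oocytes.

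Nlrp2 was at 6.67 FPKM in one 2-cell control library and listed at 0 in the other (adjusted p = 0.127 against oocytes). Nlrp4e was at 209 FPKM in one and listed at 0 in the other (adjusted p = 1). The spread of Nlrp4e between replicates of 1 group was larger than any difference between groups, and its course from oocyte to 2-cell embryo could not be read from these libraries.

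How the libraries are scaled to each other matters for this step. The sum of all FPKM was more than 2 times larger in oocytes than in 2-cell embryos, and as a share of that sum the 10 genes took 0.768% and 0.653% in oocytes and 0.841% and 0.517% in 2-cell control embryos. Relative to the total of the library the groups therefore overlapped. The median FPKM of expressed genes stood 0.48 and 0.42 log2 units above the mean of the libraries in oocytes and 0.51 and 0.25 units below it in 2-cell control embryos. After scaling to equal medians, the difference of Nlrp9b was -0.54 (adjusted p = 0.394), and the log2 ratio of the family sum was -0.39 in place of -1.25. In such bulk samples fewer cells with an mRNA and less of it per cell cannot be told apart.

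Between 2-cell and 4-cell control embryos the mRNAs of the family all but disappeared. Called lower were 7 of the 9 members tested, beside 17.5% of all genes tested and 25% of those with a mean above 2 FPKM in oocytes. Between oocytes and 4-cell control embryos 8 of 9 were lower, beside 26.3% and 45.8%. The exception was Nlrp4e (adjusted p = 0.337), and Nlrp2 (0.021) lost its call without any one of the 4 libraries compared (0.0544 to 0.122), as Nlrp14 (0.00826) did without oocyte replicate 1 (0.0524). In all, 6 members, Nlrp2, Nlrp4a, Nlrp4e, Nlrp4f, Nlrp9a and Nlrp9b, were listed at 0 in all 4 libraries of the 4-cell stage, control and Ago2 kd. Among all genes with a mean above 2 FPKM in oocytes this was so for 14.2%, and for 7.26% of those that were also above 20 FPKM on average in 2-cell control embryos, a set in which it was so for 5 of 8 members.

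Nlrp4f went from 403 and 290.0 FPKM to 0 in both 4-cell control libraries (adjusted p = 5.73e-05). Nlrp9a (adjusted p = 4.59e-05), Nlrp9b (5.56e-05) and Nlrp4a (0.000117) likewise went to 0 in both libraries. The spread behind these p-values includes the 4-cell groups at 0, which lowers it. The calls held in all 17 other fits. Adjusted p rose to as much as 0.00889 for Nlrp4f and Nlrp9a, 0.00891 for Nlrp9b and 0.00896 for Nlrp4a. Nlrp9c went from 431 and 313 FPKM to 0.647 and 2.32 FPKM, a difference of -7.30 on the log2 scale (-8.38 to -6.22, adjusted p = 8.65e-05). Setting aside Nlrp4e with its discordant replicates, Nlrp9c thus combined the highest share of the oocyte level left at the 2-cell stage, 91.7%, with a fall to near 0 at the 4-cell stage.

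Nlrp4b went from 35.5 and 21.5 FPKM to 0.249 FPKM in one library and 0 in the other (difference -4.68, -5.85 to -3.51, adjusted p = 0.000606). Nlrp14 went from 263 and 200.2 FPKM to 21.9 FPKM in one library and 0 in the other (difference -5.59, -9.78 to -1.40, adjusted p = 0.0436). This call of Nlrp14 was lost in 11 of 17 other fits, with 0.0661 when the replicate number was a term of the model, 0.0707 to 0.150 without any one of the oocyte or 2-cell libraries and 0.205 without 4-cell control replicate 2. Nlrp2 (adjusted p = 0.418) and Nlrp4e (0.326) were not called in this step, although both were listed at 0 in all 4-cell libraries. Their 2-cell control replicates differed as much as the stages did.

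**Figure D3:**
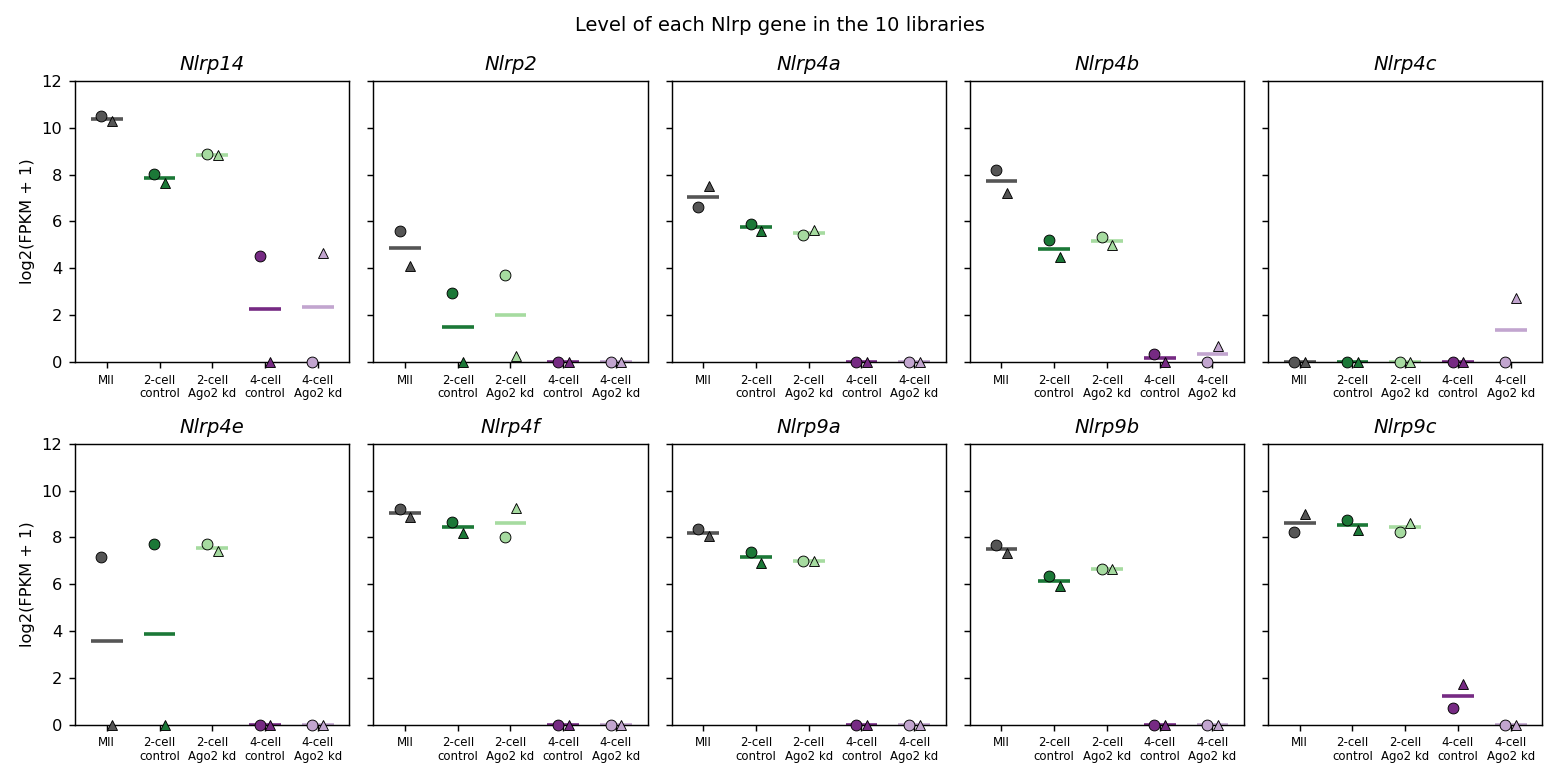
Level of each gene as log2(FPKM + 1) in the 5 groups, with circles for replicate 1, triangles for replicate 2 and bars for the group mean. Nlrp4f and Nlrp9c stay near their oocyte level at the 2-cell stage, Nlrp14 and Nlrp4b lie lower, and at the 4-cell stage 6 of the 10 genes are at 0 in every library.

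Maternal mRNAs were sorted by whether log2(mean FPKM + 1) fell by more than 1 unit in the first step, the second or both, with thresholds after those of the study and classes defined here on group means. By these thresholds Nlrp2, Nlrp4a, Nlrp4b, Nlrp9a, Nlrp9b and Nlrp14 fell in both steps, and Nlrp4e, Nlrp4f and Nlrp9c fell in the second alone. Of the 4825 genes with a mean above 2 FPKM in oocytes, 14.4% fell in both steps, 18.8% in the second alone and 22.8% in the first alone with a later change within 1 unit. None of the members was in the last class. The median member kept 38.4% of its oocyte level at the 2-cell stage and the median of all these genes 37.5%, so the members were not apart in the first step. In the second step the median difference was -6.16 over the 9 members and -0.07 over all these genes, where the value for a gene listed at 0 depends on the added 1 FPKM. In the first step the member nearest to the threshold among those past it was Nlrp9a with -1.06, followed by Nlrp9b and Nlrp4a with -1.37 each. The nearest among those that did not reach it was Nlrp4f with -0.62. The classes were not recomputed with scaled libraries. After scaling to equal medians the fitted first-step difference of Nlrp9b was -0.54, short of the threshold.

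**Figure D4:**
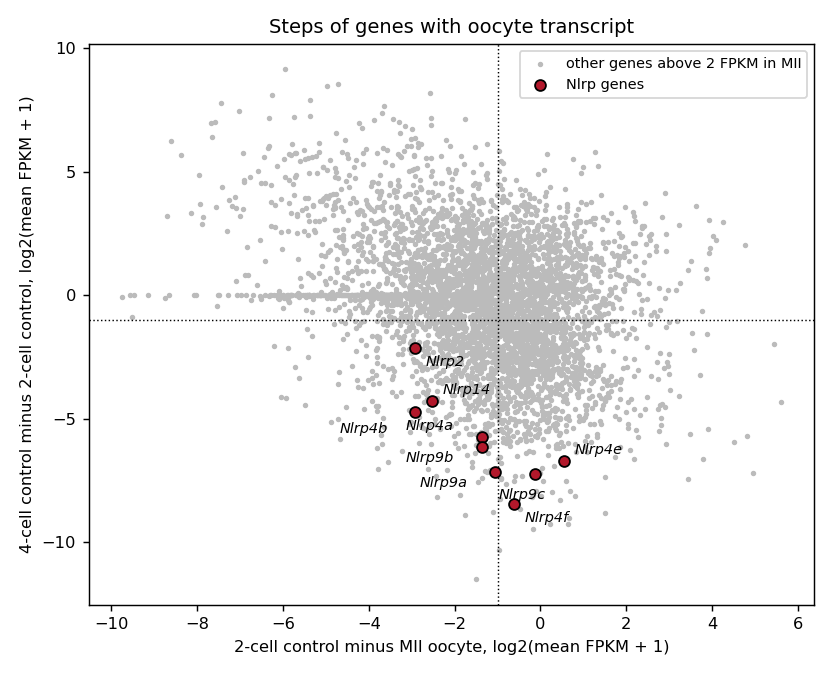
Difference of log2(mean FPKM + 1) from MII oocyte to 2-cell control (horizontal axis) and from 2-cell to 4-cell control (vertical axis) for the 4825 genes with a mean above 2 FPKM in oocytes, with the 9 Nlrp genes among them in red and dotted lines at -1. The Nlrp genes lie below -1 on the vertical axis, and 3 of them lie to the right of -1 on the horizontal axis.

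The comparison of Ago2 kd with control embryos addressed whether these mRNAs persist when Ago2 is lowered. At the 2-cell stage none of the 9 members tested was called in either direction, beside 0.55% of all genes tested. None had an unadjusted p below 0.05 either, beside 5.96%. Values of the 2 groups did not overlap for Nlrp14 and Nlrp9b, which is 2 of 9 members beside 29.1% of all genes.

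In control embryos Nlrp14 was at 263 and 200.2 FPKM, and after Ago2 kd its level was 464 and 454 FPKM. Both Ago2 kd libraries were above both control libraries, yet both remained far below the oocyte level, at 34.2% of it on average against 17.2% in control. The log2 difference between Ago2 kd and control was 0.997 with an interval from -3.19 to 5.19 (adjusted p = 1), which the differing 4-cell replicates widened. Nlrp9b, at 80.4 and 60.3 FPKM in control embryos, reached 100.5 and 99.0 FPKM after Ago2 kd (difference 0.51, interval -0.26 to 1.28, adjusted p = 1). Measured against oocytes, Nlrp9b was 1.37 log2 units lower in control and 0.87 units lower in Ago2 kd embryos. On these unscaled values it was the only member that passed the 1-unit threshold in control and not in Ago2 kd embryos. After scaling to equal medians its fitted difference between control and oocytes was -0.54, short of that threshold.

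For the other members the intervals give the size of a difference that this fit allows. The spread in the fit is shared by all groups. Nlrp4a, Nlrp4f and Nlrp9a, like Nlrp9b above, were listed at 0 in all 4-cell libraries, which lowers that spread. Their intervals can therefore be too narrow for the 2-cell stage. Nlrp9a was at 128 and 126 FPKM in Ago2 kd embryos (difference -0.14, interval -0.88 to 0.59). Nlrp4a was at 42.0 and 48.1 FPKM (difference -0.23, -1.17 to 0.71), and Nlrp4b at 38.8 and 30.8 FPKM (difference 0.31, -0.85 to 1.48). Nlrp9c was at 302 and 389 FPKM (difference -0.10, -1.18 to 0.98), and Nlrp4f at 257 and 606 FPKM (difference 0.21, -0.86 to 1.27). The intervals of these 5 genes all lay between -1.18 and 1.48 log2 units. Nlrp2, at 12.3 and 0.178 FPKM, and Nlrp4e, at 207 and 170 FPKM, had intervals wider than 6 log2 units. Nlrp4e was above 100 FPKM in both Ago2 kd libraries and in 1 of the 2 control libraries.

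At the 4-cell stage 6 of the 9 members tested were listed at 0 in all 4 libraries and could not differ, so the comparison bears on Nlrp4b, Nlrp9c and Nlrp14 alone. None of the 9 members was called between Ago2 kd and control embryos, beside 4% of all genes tested. One, Nlrp9c, had an unadjusted p below 0.05, beside 15.4%, and it was also the only one whose groups did not overlap, beside 37%. Nlrp9c was at 0.647 and 2.32 FPKM in control embryos, and both Ago2 kd libraries listed it at 0. Its adjusted p was 0.255, and with 0.1 in place of 1 FPKM added before the logarithm it was 0.0215. All of these values are below 1% of the level at the 2-cell stage. The control libraries held Nlrp14 at 21.9 and 0 FPKM and those after Ago2 kd at 0 and 24.2 FPKM, so that each group held 1 library with a level above 20 FPKM and 1 at 0. For Nlrp4b the values were 0.249 and 0 FPKM in control embryos and, after Ago2 kd, 0 and 0.592 FPKM. All 10 genes were listed at 0 in 4-cell Ago2 kd replicate 1, the library with 12.6% of such zeros among genes above 10 FPKM in the other replicate.

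**Figure D5:**
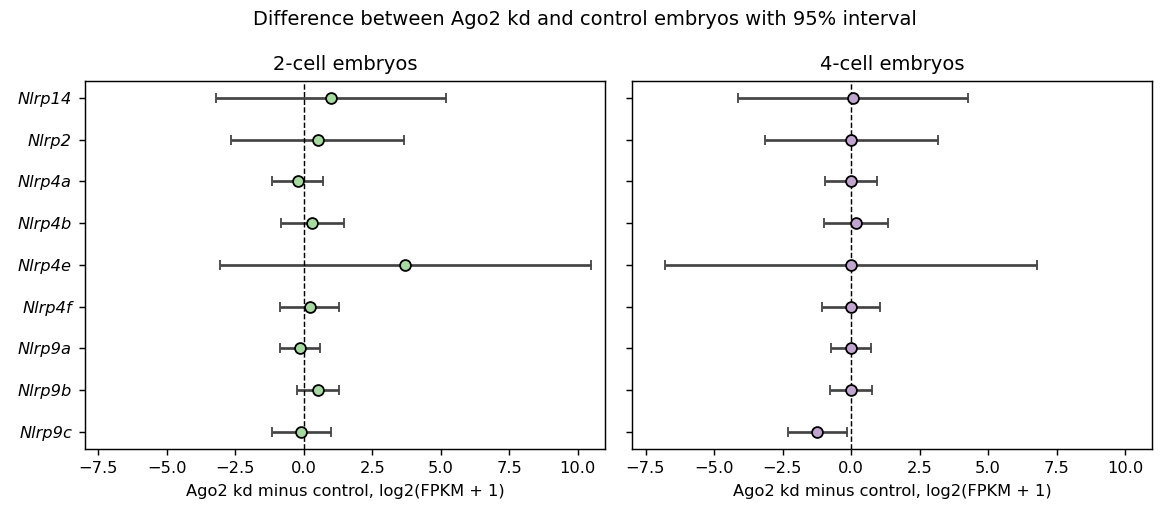
Difference between Ago2 kd and control embryos in log2(FPKM + 1) for the 9 genes tested, with bars for the 95% interval of the fit, at the 2-cell stage on the left and the 4-cell stage on the right. Each interval at the 2-cell stage includes 0, and intervals for Nlrp14, Nlrp2 and Nlrp4e are the widest.

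Within Ago2 kd embryos the difference between 2-cell and 4-cell stages was called for 7 of 9 members, beside 16.5% of all genes, and these were the members called in control embryos. Nlrp4f went from 257 and 606 FPKM to 0 in both libraries (adjusted p = 7.04e-05). Nlrp9c went from 302 and 389 FPKM to 0 in both (8.31e-05), and Nlrp4b from 38.8 and 30.8 FPKM to 0 and 0.592 FPKM (difference -4.82, adjusted p = 0.000676). The calls of these genes held in all 17 other fits, with adjusted p up to 0.0269 for Nlrp4f, 0.0219 for Nlrp9c and 0.0299 for Nlrp4b. Nlrp4e went from 207 and 170 FPKM to 0 in both and was not called (0.0827), but it was in 3 of 17 other fits. Among these was the fit of only these libraries (0.0219). Nlrp14 was called (0.027), and the call was lost in 8 of 17 other fits, which were those without either oocyte replicate (0.0584 and 0.0588), either 2-cell Ago2 kd replicate (0.0960 and 0.102) or 4-cell Ago2 kd replicate 1 (0.105), with 0.1 FPKM added (0.0790), no filter (0.0648) and only these libraries (0.108). The difference between the knockdown effects at the 4-cell and 2-cell stages was called for none of the 9, beside 2.28% of all genes, and none had an unadjusted p below 0.05, beside 13.4%.

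The wider family and pathway were scarcely represented. Nlrp5, an essential part of the subcortical maternal complex, was at 25.8 and 46.2 FPKM in oocytes. Its level was 8.83 and 16.7 FPKM in control 2-cell embryos, 4.87 and 6.21 FPKM after Ago2 kd, and at most 0.175 FPKM at the 4-cell stage. The pseudogenes Nlrp4g and Nlrp5-ps did not exceed 0.535 FPKM. Of 11 other NLR genes, 3 had a row and none passed the filter for testing, and of 8 inflammasome effectors 2 had a row and none passed. Markers of myeloid immune cells, with 3 of 6 in the table, summed to at most 1.48 FPKM in any library.

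Of the 6 genes of the subcortical maternal complex, Nlrp5, Ooep, Tle6, Khdc3, Padi6 and Zbed3, 3 were called lower from oocyte to 2-cell control embryo and 3 lower and 1 higher from 2-cell to 4-cell control embryo. Zbed3 was lower in both steps, going from 103 and 175 FPKM in oocytes to 38.4 and 31.5 FPKM at the 2-cell and 0 at the 4-cell stage. Khdc3 differed, with at most 1.01 FPKM in control embryos at the 2-cell stage but 50.5 and 41.3 FPKM at the 4-cell stage. None of the 6 was called between Ago2 kd and control embryos, beside 0.55% of all genes at the 2-cell and 4% at the 4-cell stage. At the 2-cell stage Khdc3 was at 6.36 and 10.9 FPKM after Ago2 kd, above both control libraries (difference 2.72, interval 1.44 to 4.00, adjusted p = 0.141). Tle6 was at 0.672 and 0.805 FPKM in control embryos and reached 49.4 and 7.52 FPKM after Ago2 kd (difference 3.58, interval 1.58 to 5.57, adjusted p = 0.236).

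The genes whose log2(FPKM + 1) over the 10 libraries was most like that of the family sum were Ect2 (Pearson's r = 0.992), Tram1 (0.989), Vamp4 (0.987), Gm8121 (0.986) and Phospho2 (0.986). These libraries fall into a high group of oocytes and 2-cell embryos and a low group of 4-cell embryos, and 115 of 8717 genes had an r above 0.95, so the likeness is a description of that fall. Ect2, a gene needed for cytokinesis, was at 37.4 and 36.4 FPKM in oocytes. In control embryos it was at 35.4 and 21.0 FPKM at the 2-cell stage, then at 2.59 and 1.11 FPKM at the 4-cell stage.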

How the data were processed

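The authors used FastQC and Trim Galore for quality control and trimming, mapped reads to mouse genome GRCm38.p6 (mm10) with HISAT2 2.1.0 and deposited FPKM from StringTie, 1 value per gene name and library. The submitters' processing notes also name CASAVA 1.4. Library selection and strandedness are not given in the sources used here, and counts were not used, so DESeq2, the test of the study, could not be run.

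Groups were taken from the sample titles. The labels do not say that replicates came from separate cultures or animals, so p-values measure only the spread between these libraries. The 8726 genes with at least 1 FPKM in 2 libraries were fitted as log2(FPKM + 1) with limma 3.58.1 in R 4.3.3 (5 group means, variance trend, 5 residual degrees of freedom, two-sided, Benjamini-Hochberg). An exact permutation of 2 against 2 libraries cannot give a p below 0.333. The fit was tested on simulated data. Each replicate left out, other scalings, filters and pseudocounts were tried as alternatives. Sums carry no test. No columns of the table were left unmapped.

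All 10 members are named, with lists for other NLR genes, inflammasome effectors, the subcortical maternal complex, partners of NLRP14 and cell type markers, and the 5 genes most correlated with the family sum. Members and lists were chosen with earlier results of these data known. In oocyte libraries 22.2% and 23.5% of non-zero values carry more than 6 significant digits, against 1.37 to 1.78% elsewhere, and 193 genes above 0, none of them a member, have the same value in both 2-cell Ago2 kd libraries. Another version of the oocyte values released with the study divides the sum of the replicates differently for most members, so tests against oocytes depend on the division deposited. None of these features is explained in the sources used here. Coding identity was computed with Biopython 1.88 on the longest coding transcript of each gene, by global alignment, in place of protein identity. Exact 50-base and 100-base stretches were searched on both strands of all GENCODE M21 transcripts. Figures were drawn with matplotlib 3.10.9.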

Additional observations from a re-analysis of the deposited data

How the results depend on the processing

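Over 63 combinations of member and comparison, 1071 effects were recomputed with a pseudocount of 0.1, no filter, equal medians, quantile normalization, the replicate block, no variance trend, only the groups compared, and each replicate left out. Of these, 1024 stayed on their side of the threshold, 35 lost their call, 12 gained one and none reversed a call, while 35 uncalled effects changed sign. The cause of these changes was not tested. The number of members called lower from oocyte to 2-cell control, 2 in the report, was 0 with a pseudocount of 0.1, 1 with equal medians, 0 with quantile normalization, 4 without the variance trend, 1 with only the groups compared, and 1 to 3 with a replicate left out. Nlrp9b lost its call without either oocyte replicate (adjusted p = 0.107 and 0.0525) and without 2-cell control replicate 2 (0.116). Between Ago2 kd and control at the 4-cell stage, the pseudocount of 0.1 gave 1 called member, Nlrp9c. The other counts stayed within 1.5 times of those reported. The log2 ratio of the family sum in 2-cell control over oocyte was -0.39 with equal medians and -0.071 with quantile normalization, and -1.62 to -0.97 with a replicate left out. That of 4-cell over 2-cell control ran from -9.19 to -5.89, that of Ago2 kd over control at the 2-cell stage from 0.074 to 0.722, and at the 4-cell stage from -0.58 to 2.71, where leaving out Ago2 kd replicate 2 gave no ratio because the other library was at 0. Nlrp2 from oocyte to 4-cell control lost its call with quantile normalization (0.0503) and without any 1 of the 4 libraries concerned (0.0544 to 0.122).

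Samples with the same replicate number did not deviate together (r between -0.093 and 0.092 across genes), so the numbers pair nothing. With the replicate block 6 members in place of 7 were called from 2-cell to 4-cell control, Nlrp14 having an adjusted p of 0.0661, and the counts of the other comparisons were the same. With only the groups compared no gene of the 8726 was called at either stage of the knockdown (smallest adjusted p 0.184 and 0.157), so this alternative says nothing of the members there.

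FPKM carry no read number, so no counting error can be given, and 2 libraries per group leave intervals near 1 log2 unit on either side even for the steadiest members. Nlrp4c and Nlrp4e share sequence with each other and with pseudogenes, and its part in their values was not tested.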

Other observations

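Within the Nlrp9 genes, Nlrp9c took a larger part of the sum in the 2-cell libraries than in the oocyte libraries as deposited. This was not tested, and the oocyte parts rest on the deposited division between replicates. Nlrp9c made up 300.4 of the 830 FPKM summed over the 3 genes in MII oocyte replicate 1 and 512 of 940 FPKM in replicate 2. In 2-cell control embryos it made up 431 of 675 and 313 of 494 FPKM, and in 2-cell Ago2 kd embryos 302 of 530 and 389 of 614 FPKM. The Nlrp9 sum in 2-cell control embryos was 66.0% of the oocyte mean, the Nlrp4 sum 55.2% and Nlrp14 17.2%, values without a test. At the 2-cell stage the Nlrp9 sum in Ago2 kd embryos was 97.9% of control and the Nlrp4 sum 131%, and the libraries of both sums overlapped between the groups.

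Without Nlrp14 the family sum in 2-cell control embryos was 59.5% of the oocyte level, against 41.9% with it. Without Nlrp4e it was 39.5%. Nlrp14 therefore weighed more on this ratio than Nlrp4e, whose replicates disagreed.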
